A study of Mus musculus with 8 samples.

Results

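TNF, TRAIL and 7 related genes of the TNF ligand and receptor families were followed in osteoclasts lacking ELMO1, a cytoplasmic protein that works with DOCK proteins to activate the GTPase Rac. The 9 genes were chosen by symbol, with earlier results of these data known. They are 5 ligands (Tnf, Tnfsf10, Tnfsf9, Tnfsf12 and Tnfsf13b) and 4 receptors (Tnfrsf1a, Tnfrsf1b, Tnfrsf10b and Fas). All 9 were found among the 46517 genes measured, and all 9 passed the filter on low values. Bone marrow was taken from mice 6 to 8 weeks old, and osteoclasts, the cells that resorb bone, were grown from it for 7 days with 50 ng/ml GST-RANKL in medium with 10% L929 cell supernatant, a source of M-CSF. RNA was sequenced from 4 Elmo1-/- mice (null) and 4 Elmo1+/- mice (heterozygous controls, which still carry 1 intact copy and whose libraries are titled WT), with 1 library per mouse. The deletion was global and not limited to osteoclasts. The study assessed both males and females, with controls matched for sex, but the sex of each mouse is not among the labels used here. The question was how losing ELMO1 alters the transcripts of RANKL-grown osteoclasts.

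Members of the TNF family are mostly trimeric ligands, made as membrane proteins and in part shed, which cluster their receptors on the cell surface. TNFR1 (Tnfrsf1a), Fas and DR5 (Tnfrsf10b) carry a death domain and can start caspase-driven cell death, whereas TNFR2 (Tnfrsf1b) lacks this domain and recruits TRAF adaptors. RANK, the receptor through which RANKL drives osteoclast formation, belongs to the same receptor family, and TNF is known to act with RANKL in inflammatory bone loss.

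The libraries held 20905502 to 40846651 reads on genes. Elmo1 itself stood at 274, 287, 316 and 291 normalized counts in the null mice and at 1528, 1423, 1769 and 1651 in the controls (log2 fold change -2.44, SE 0.09, limma adjusted p = 8.4e-06). Every null library thus still held Elmo1 reads, 240 to 379 of them, and from which part of the gene they came was not analysed here. A normalized count is the number of reads on a gene divided by the size factor of its library. In both genotypes, libraries 1 and 2 stood apart from libraries 3 and 4 on the first principal component, which held 62.3% of the variance, with null mouse 2 between the others at -6.0. The mice came from 2 experiments, but which mouse belonged to which is not given in the sources used here. All 10 osteoclast markers were lower in the libraries numbered 1 and 2 than in those numbered 3 and 4 without overlap, and their summed normalized counts ran from 450909 to 692445 in the former and from 1029110 to 1173010 in the latter. None of the 10 separated the genotypes. Macrophage markers summed to between 330465 and 421307, while 9 of 10 T and NK cell markers were under 10 in every library and 3 of them, Cd3g, Gzma and Ncr1, were at 0. In such bulk RNA, fewer cells of a type and less RNA per cell cannot be told apart.

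The receptors of TNF were the most abundant of the 9 transcripts, and TRAIL was the least. Levels of different genes were compared in reads per kilobase of exon, scaled to library size (RPKM). Tnfrsf1b led with 228 ± 37.8 RPKM (SD, n = 8 mice) and ranked 256th of 14096 genes. Tnfrsf1a followed at 78.6 ± 13.7 and Tnf at 72.2 ± 10.4. These cultures therefore held abundant transcripts for TNF and for both of its receptors. Fas came next at 24.2 ± 8.86 RPKM, then Tnfsf9 at 12.3 ± 4.17 and Tnfsf12 at 8.48 ± 1.21. Tnfrsf10b reached 1.74 ± 0.28, Tnfsf13b 0.243 ± 0.0607 and Tnfsf10 0.153 ± 0.0682, so that TRAIL ranked 13389th. The ranges over 8 mice overlapped between Tnfrsf1a and Tnf, between Fas and Tnfsf9, between Tnfsf9 and Tnfsf12, and between Tnfsf13b and Tnfsf10, and the other neighbours in this order did not overlap. Tnfrsf1a exceeded Tnf in 6 of 8 mice, and Tnfsf13b exceeded Tnfsf10 in 7 of 8.

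**Figure D1:**
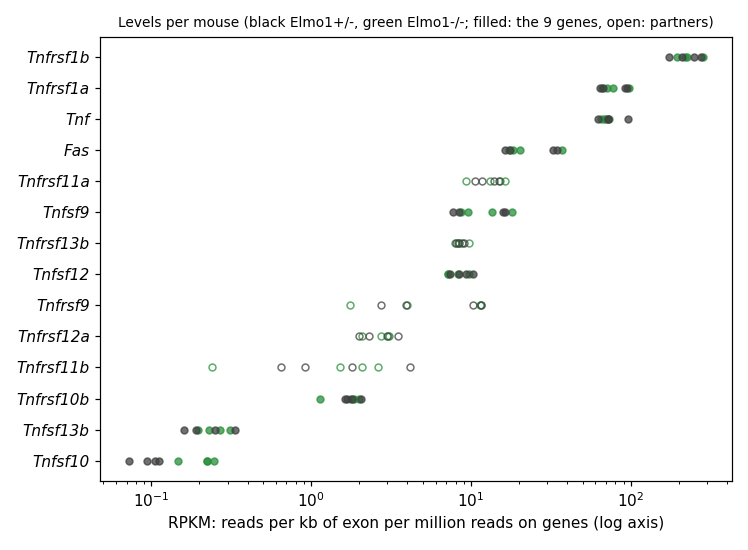
Levels in RPKM (log axis) of the 9 genes (filled) and of binding partners with a mean of at least 0.1 RPKM (open), 1 point per mouse, black for Elmo1+/- and green for Elmo1-/-. Tnfrsf1b sits highest at 228 RPKM on average and Tnfsf10 lowest at 0.153 RPKM, where the green points lie to the right of the black ones.

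TRAIL (Tnfsf10), the ligand that starts cell death through DR5, was the only one of the 9 genes whose genotypes did not overlap. The gene lies on the plus strand of mouse chromosome 3, at chr3:27317028-27342427 (GRCm38). Its normalized counts were 43.5, 35.9, 24.2 and 37.3 in null mice 1 to 4 and 19.3, 15.8, 12.2 and 17.1 in control mice 1 to 4. Every null mouse was above every control mouse, and the mean was 35.2 ± 8.06 (SD, n = 4) against 16.1 ± 2.99. The fold was 2.10 (95% interval 1.44 to 3.06), or 1.07 on the log2 scale (SE 0.24). The exact two-sided permutation test of the 70 arrangements of mice gave p = 0.0286, the smallest it can give. Over all 14139 genes tested, the unadjusted limma p was 0.00161 and the adjusted p 0.9999, so Tnfsf10 did not pass the test. The study had already named Tnfsf10 among the genes altered in these osteoclasts, so the unadjusted and permutation p-values are no independent evidence. Of all genes tested, 0.502% were higher in every null mouse than in every control mouse, and 0.941% did not overlap in either direction.

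The Tnfsf10 values rested on few reads, 216 in all. The null libraries held 46, 30, 29 and 48 reads and the control libraries 21, 16, 8 and 18, and the 8 reads of control mouse 3 carry an exact Poisson 95% interval of 3.45 to 15.8. Counting alone would give an SD of 5.78 normalized counts among the null mice and 4.13 among the controls, beside observed SDs of 8.06 and 2.99. These intervals cover counting error only. The difference was present on both sides of the split by library number, at 1.13 on the log2 scale among libraries numbered 1 and 2 and at 1.01 among those numbered 3 and 4. As the share of the null mean in the sum of both genotype means, the scale the study used, in which 0.5 is no difference, Tnfsf10 stood at 0.686 and the other 8 genes between 0.474 and 0.516.

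**Figure D2:**
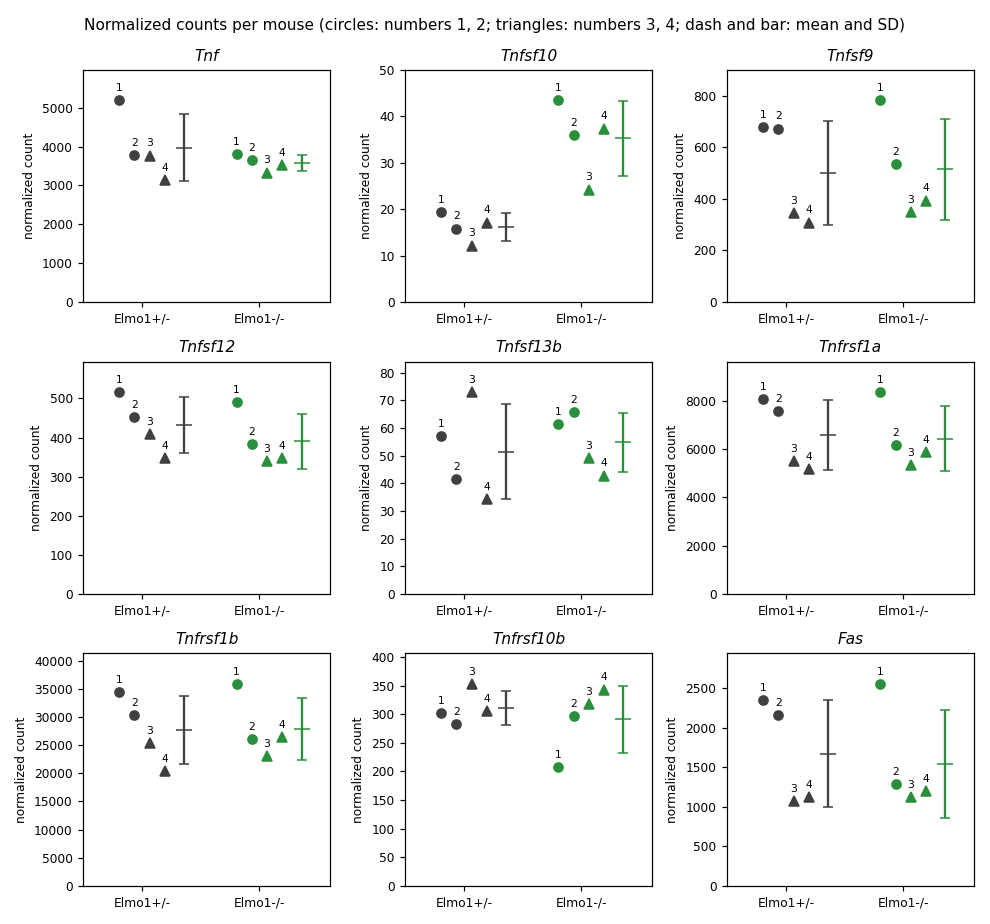
Normalized counts of the 9 genes in each mouse (number beside each point), with the mean and SD of 4 mice per genotype to the right of the points, black for Elmo1+/- and green for Elmo1-/-. Only in the Tnfsf10 panel do the groups lie apart, at 24.2 to 43.5 against 12.2 to 19.3, while Fas and Tnfsf9 fall into a high and a low pair that follow the library number in the controls.

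DR5 (Tnfrsf10b, chr14:69767472-69784411, plus strand), a TRAIL receptor with a death domain, overlapped between the genotypes. Its normalized counts were 207, 297, 317 and 343 in null mice 1 to 4 and 303, 283, 353 and 306 in the controls. The null mean of 291 ± 59.0 and the control mean of 311 ± 29.9 were less than 1 SD apart (log2 fold change -0.12, SE 0.16, 95% interval -0.48 to 0.25). Within a library, the TRAIL to DR5 ratio of RPKM was 0.134 ± 0.0592 in null mice and 0.0544 ± 0.0131 in controls. TRAIL transcripts were thus scarce relative to those of DR5 in both genotypes.

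TNF itself (Tnf, chr17:35199381-35202007, minus strand), an inflammatory cytokine and a known inducer of osteoclasts, showed no difference larger than the spread between mice. Tnf stood at 3816, 3652, 3332 and 3526 normalized counts in the null mice and at 5198, 3776, 3769 and 3146 in the controls. The controls covered the whole range of the null mice, with means of 3581 ± 204 and 3972 ± 869 (log2 fold change -0.13, SE 0.14, 95% interval -0.44 to 0.19). TNFR1 (Tnfrsf1a, chr6:125349362-125362484, plus strand), which carries the death domain, ranged from 5348 to 8382 in null mice and from 5162 to 8066 in controls (log2 fold change -0.02, 95% interval -0.44 to 0.39). TNFR2 (Tnfrsf1b, chr4:145213463-145246870, minus strand) ranged from 23150 to 35956 and from 20484 to 34427 (0.02, -0.40 to 0.44). Both receptors kept a narrow proportion to each other, since Tnfrsf1b exceeded Tnfrsf1a in RPKM by a factor of 2.69 to 3.14 in every mouse (mean 2.90 ± 0.152, SD, n = 8).

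Fas (chr19:34290666-34327772, plus strand), the death receptor bound by Fas ligand, varied more among mice than between genotypes. Null mice 1 to 4 gave 2555, 1285, 1119 and 1193 normalized counts and control mice 1 to 4 gave 2350, 2153, 1067 and 1118. Null mouse 1 and control mice 1 and 2 were high, the other 5 mice were low, and the groups overlapped (log2 fold change -0.12, SE 0.34, 95% interval -0.89 to 0.66). Tnfsf9 (chr17:57105325-57107757, plus strand), the ligand of the T cell co-stimulator CD137, gave 783, 535, 347 and 394 in null mice and 677, 672, 344 and 308 in controls (0.06, -0.70 to 0.82). Tnfsf12 (chr11:69686250-69695849, minus strand), which encodes TWEAK, ranged from 340 to 491 in null mice and from 347 to 517 in controls (-0.14, -0.50 to 0.21). Reads of Tnfsf12 may be shared with the overlapping genes Tnfsfm13 and Tnfsf13os, those of Fas with Gm27818 and those of Tnfsf9 with the antisense gene Gm11110. Tnfsf13b (chr8:10006467-10039072, plus strand), which encodes the B cell survival factor BAFF, ranged from 42.8 to 65.8 and from 34.3 to 73.1 (0.13, -0.46 to 0.71).

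**Figure D3:**
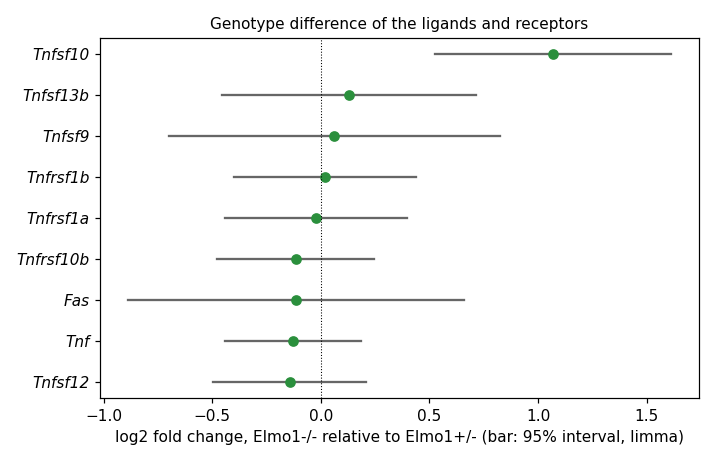
Log2 fold change of each gene in Elmo1-/- relative to Elmo1+/- osteoclasts (points), with the 95% interval of the limma fit (bars, n = 4 mice per genotype). The interval of Tnfsf10 runs from 0.53 to 1.61 and those of the other 8 genes include 0.

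No gene of the 9 was called at an adjusted p of 0.05, where 0.00707% of all genes tested, that is Elmo1 alone, were called. At an unadjusted p under 0.05, 1 of the 9 passed with limma, edgeR and DESeq2 alike, Tnfsf10, beside 0.941% of all genes with limma. For the other 8 genes the intervals leave room for changes that this fit could not resolve, widest for Fas and Tnfsf9. The fit had no term for the split by library number, which therefore counted as spread between mice. With the split as a term, the SE was 0.12 in place of 0.34 for Tnfsf9 and 0.19 in place of 0.34 for Fas. For Tnfsf13b it was 0.24 in place of 0.26, and none of the 9 was called.

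Split by library number, 1 and 2 against 3 and 4, 4 of the 9 genes did not overlap, near the share among all genes tested, 34.0%. The split was found in these libraries and is described without a test. Tnfsf9 was at 535 to 783 in libraries 1 and 2 and at 308 to 394 in libraries 3 and 4, a 1.90-fold difference of means. Fas was at 1285 to 2555 against 1067 to 1193, and Tnfrsf1a at 6183 to 8382 against 5162 to 5873. All 3 were higher where the osteoclast markers were lower, as were 15.8% of all genes. So were 3 of 8 macrophage markers, Cd14 at 16432 to 20626 against 14189 to 15797, Mrc1 at 5770 to 11636 against 3750 to 4942 and Mertk at 1303 to 1597 against 835 to 1252. Tnfrsf10b went the other way, at 207 to 303 in libraries 1 and 2 and 306 to 353 in libraries 3 and 4. The part of the osteoclast and macrophage markers in these values was not tested. Whether the genotype difference itself changed with the library number was tested by an interaction term, which called none of the 9 genes (378 genes, 2.67% of all, at an unadjusted p under 0.05, and 0.0% after adjustment, limma). For Fas the interaction was 0.39 on the log2 scale (95% interval -0.41 to 1.20). Without null mouse 1, which leaves null mouse 2 alone on that side and assumes it varies like the others, it was 0.89 with an adjusted p of 0.0032, in a fit that called 181 genes, 1.29% of all. Without null mouse 2 it was -0.10 and was not called, while 239 genes, 1.7% of all, were. Its sign thus depended on which of these 2 null mice was kept.

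**Figure D4:**
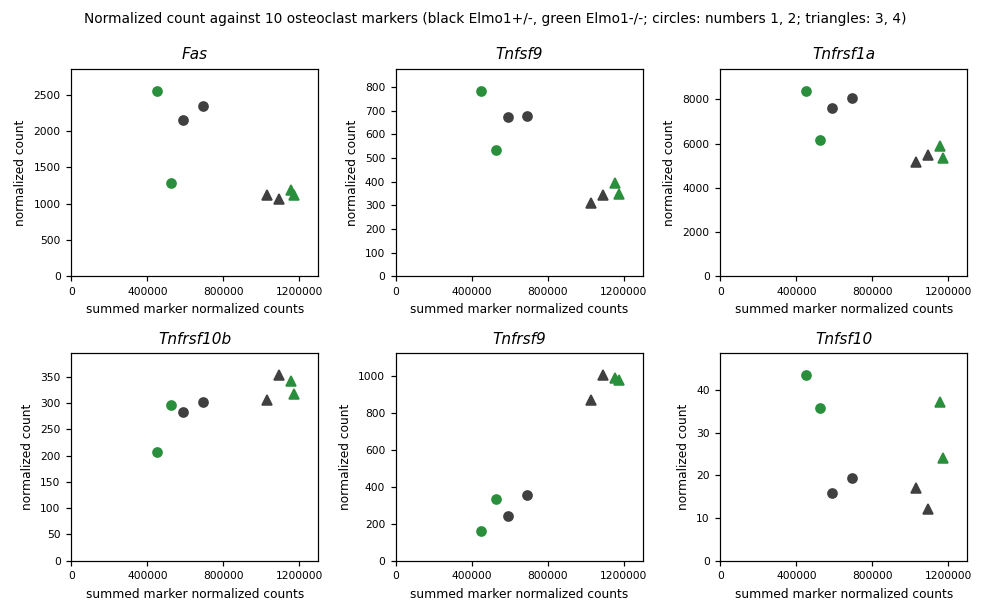
Normalized count of 6 genes against the summed normalized counts of 10 osteoclast markers, 1 point per mouse, black for Elmo1+/- and green for Elmo1-/-, circles for libraries 1 and 2 and triangles for 3 and 4. Fas, Tnfsf9 and Tnfrsf1a are higher at the low marker sums, Tnfrsf10b and Tnfrsf9 are lower there, and Tnfsf10 separates by colour.

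Several of the binding partners were expressed, and 1 pair of ligand and receptor differed in opposite directions between the libraries. CD137 (Tnfrsf9), the receptor of the Tnfsf9 product, was at 159 to 353 normalized counts in libraries 1 and 2 and at 870 to 1003 in libraries 3 and 4, opposite to its ligand, and its genotype difference was within its error (log2 fold change -0.13, SE 0.67). Tnfrsf12a, the TWEAK receptor Fn14, ranged from 127 to 215. Of the receptors that bind BAFF, TACI (Tnfrsf13b) was at 707 to 844, Tnfrsf13c had 0 reads and Tnfrsf17 had 12 reads in all 8 libraries. Fasl had 1 read and Tnfsf11, the gene of RANKL itself, had 4, so transcripts of the ligands of Fas and RANK were near the floor in these cultures. Tnfrsf11a, which encodes RANK, was at 1864 to 2423 in libraries 1 and 2 and 2660 to 3087 in libraries 3 and 4. Tnfrsf11b, the gene of the RANKL decoy osteoprotegerin, was at 22.7 to 131 and at 157 to 370.

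The wider pathway showed no called gene. Of 109 genes in 5 lists, 94 were tested, 0 passed the adjusted test, and 8 had an unadjusted p under 0.05 with limma. All 8 were higher in null mice, beside 0.941% of all genes in either direction and 0.53% higher in null mice. edgeR also gave 0 and 8 of 94, and DESeq2, which tested 105 of the genes, 0 and 10. Of the 8 with limma, 6 were in the list of interferon-stimulated genes and 2 in the list of genes induced by TNF. Cxcl10 was 1 of these 2 and was placed in that list only. The 8 fell to 1 without null mouse 4, to 2 without control mouse 1, to 5 without control mouse 2 and to 1 with only libraries 3 and 4, and stood at 11 with only libraries 1 and 2. Among the other ligands 6 of 13 were tested, with a median log2 fold change of -0.03, and among the other receptors 16 of 24, with a median of -0.01. All 37 adaptors, caspases and other signalling genes were tested and lay between -0.10 and 0.18. The 20 genes induced by TNF had a median of 0.04, and the median of all genes was -0.003. Of 15 interferon-stimulated genes, a class to which TRAIL is commonly assigned, all 15 had a log2 fold change above 0, from 0.30 to 0.68. Their median was 0.38, and 6 passed the unadjusted threshold, as did 0.53% of all genes in this direction. Without null mouse 1 the median was 0.18, 14 of the 15 were above 0 and 3 passed. Without control mouse 1 the number that passed was 1, without null mouse 4 it was 0, and without control mouse 2 or 3 it was 4. Without null mouse 3 the median was 0.58 and 9 passed. Within libraries 1 and 2 it was 0.63 and within libraries 3 and 4 it was 0.20. The list was chosen with the earlier results of these mice known and is no independent evidence of a direction. The 4 highest of the 94 genes were the chemokine Cxcl10, at 864 ± 156 normalized counts in null mice and 524 ± 162 in controls (log2 fold change 0.75, SE 0.21), and Ifi44, Ifit2 and Ifit3 at 0.68, 0.62 and 0.61. The 4 lowest were Cxcl2 at -0.36, Tnfrsf4 at -0.29, Tnfrsf11b at -0.28 and Ier3 at -0.25, and all 8 had an adjusted p of 0.9999.

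The genes most like Tnfsf10 over the 8 libraries, by Pearson's r of log2 values, were Ppm1n (0.94), Pde7a (0.94), Vwa7 (0.94), Sf3b4 (0.93) and Smap2 (0.92), and 9 of 14138 genes exceeded 0.9. Those most like Tnf were Mafg (0.94), Nacc1 (0.94), Gm26819 (0.93), Vgll4 (0.93) and Gm5884 (0.93), with 17 genes above 0.9. These libraries share 2 genotypes and the split by library number, and the values are a description.

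The 250 bases before the start site are shown for TRAIL, whose genotypes lay apart, and for the 3 receptor genes whose windows held the GAS motif, from RefSeq on GRCm38.p6. Of the 9 genes, 6 had an entry, and 11 motifs chosen after the values were seen were searched on both strands. Capitals mark the interferon motif GAAANNGAA (7.13% of 32851 windows of this length hold it) and the GAS motif TTCNNNGAA, the site of STAT factors (7.02%). Coordinates give the window and its strand. As GENCODE draws the genes, the whole window of Tnfrsf1a lies inside its gene, which starts at 125349362. That of Tnfsf10 ends inside its gene, which starts at 27317028.
Tnfsf10, chr3:27316827-27317076, plus strand: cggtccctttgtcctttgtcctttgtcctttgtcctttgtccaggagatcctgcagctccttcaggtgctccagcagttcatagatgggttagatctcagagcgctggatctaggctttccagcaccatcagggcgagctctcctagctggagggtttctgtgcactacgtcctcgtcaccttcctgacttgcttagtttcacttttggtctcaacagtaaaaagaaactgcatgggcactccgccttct
Tnfrsf1a, chr6:125349473-125349722, plus strand: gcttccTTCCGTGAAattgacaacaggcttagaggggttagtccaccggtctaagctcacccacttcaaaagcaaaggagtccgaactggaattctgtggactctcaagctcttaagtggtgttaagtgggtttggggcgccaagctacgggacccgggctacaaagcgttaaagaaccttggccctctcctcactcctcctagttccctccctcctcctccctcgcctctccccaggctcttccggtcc
Tnfrsf1b, chr4:145246871-145247120, minus strand: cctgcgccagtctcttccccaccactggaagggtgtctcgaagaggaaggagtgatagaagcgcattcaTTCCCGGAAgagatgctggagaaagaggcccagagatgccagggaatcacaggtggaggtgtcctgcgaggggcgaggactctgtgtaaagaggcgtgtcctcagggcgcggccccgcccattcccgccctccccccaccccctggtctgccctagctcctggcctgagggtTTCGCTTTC
Fas, chr19:34290409-34290658, plus strand: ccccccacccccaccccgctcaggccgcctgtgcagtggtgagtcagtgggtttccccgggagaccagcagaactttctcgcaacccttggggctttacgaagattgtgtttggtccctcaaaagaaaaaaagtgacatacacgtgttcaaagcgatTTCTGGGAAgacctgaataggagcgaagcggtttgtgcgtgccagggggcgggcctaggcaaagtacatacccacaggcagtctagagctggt

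The GAS motif was found in the windows of Tnfrsf1a, Tnfrsf1b and Fas, with its first base at -244, -181 and -93 from the start, and GAAANNGAA in those of Tnfrsf1b at -9 and Tnfsf13b at -16. The TRAIL window held neither in exact form, and near matches were not counted. The AP-1 motif TGANTCA (6.75% of all windows) was in those of Fas at -211 and Tnfsf13b at -127, TATAAA (12.4%) in that of Tnf at -29, and TGGAAA (18.6%) in those of Tnfsf10 at -134 and Tnf at -181. No window held TGACGTCA (1.55%), GAGGAAGT (2.44%), TTTCGCGC (0.256%), GGGGCGGGG (10.4%), the kappaB motif (3.9%) or the p53 motif (0.432%). The Tnfsf13b matches lay in the window chr8:10006383-10006632, which runs into its gene as GENCODE draws it, from 10006467. A further window of Tnfsf13b, chr8:10006217-10006466, held no match. The matches do not overlap each other. A match is a run of letters and not a shown binding site.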

How the data were processed

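Per the labels and methods, mRNA libraries (TruSeq) were sequenced as 75 bp paired-end reads on a NextSeq 500. The submitters' processing notes name FastQC, STAR, featureCounts and DESeq2, without versions, and no genome build is stated there. As deposited by the authors, the table holds a normalized signal, the count of each of 46517 Ensembl genes divided by 1 size factor per library, and their own fold changes and p-values, which were not used. All values (100%) gave whole reads within a tolerance of 0.01. Symbols and positions came from GENCODE M21 (GRCm38), which matched 46005 identifiers and left 512. RPKM used the union of exons.

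Genotypes were compared with limma 3.58.1 in R 4.3.3 (trend, robust) on log2(normalized count + 1), for 14139 genes whose normalized count reached 10 in 4 libraries or more, and p-values were adjusted by Benjamini-Hochberg (threshold 0.05). Fold changes on this scale understate low genes. Exact permutation tests were two-sided. edgeR 4.0.16 and DESeq2 1.42.0 were run on recovered reads as alternatives, beside other scalings, filters and pseudocounts, a replicate block, a term for the split by library number, each side alone and each mouse left out. The fits were tested on simulated data with 200 changed genes. The simulated data held no split by library number, and the changed genes all had higher mean counts than Tnfsf10. P-values measure the spread between single mice, which in the main fit includes the split by library number. Same-numbered libraries of the genotypes deviated together, with correlations of 0.156 to 0.704 in 4 pairs. Other pairs on the same side of the split did so as well, at 0.0259 to 0.691. The values thus follow the split and do not show that the numbers pair single mice. The main fit and the permutation test used no pairing, and the replicate block was run only as an alternative. The 9 genes and the lists were chosen with earlier results of these data known. Named genes are Elmo1, the 9 genes, their direct partners, the 4 highest and 4 lowest tested pathway genes, and the 5 genes most like Tnf and most like Tnfsf10. Markers that moved with a result are named as well.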

Additional observations from a re-analysis of the deposited data

Results flagged for a closer look

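Fas in the null mice had 1 library far from the other 3, null mouse 1 at 2555 normalized counts, whose gap to the nearest mouse was 0.885 of the whole range of the group, past Dixon's 95% critical value for 4 samples. Of 18 groups of 4 examined, 1 met this, and chance gives about 1 in 20. Null mouse 1 also had the lowest summed osteoclast markers, 450909.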

How the results depend on the processing

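Of 20 alternative settings for the genotype difference, none called any of the 9 genes or any pathway gene, and the lowest adjusted p of the 9 was 0.936. Tnfsf10 stayed higher in null mice in every setting that tested it, with 0.95 to 1.24 on the log2 scale when 1 mouse was left out, but a minimum of 50 normalized counts removed it. Of the 9 genes, only Tnfsf10 and Tnfsf12 kept the direction of their genotype difference in every one of these settings that tested them. The number of genes called was 2 in place of 1 with DESeq2 and with only libraries 3 and 4 (1 to 2 when 1 mouse was left out, 2 without control mouse 2), the added gene being Gpr137b-ps. With the replicate number as a block, 1 gene was called, Tnfsf10 had the same log2 fold change of 1.07 (SE 0.22), and no call changed. Genes at an unadjusted p under 0.05 numbered 133, and 389 with the block, 411 with the split as a term, 478 without a filter, 90 at a minimum of 50, 369 and 424 within libraries 1 and 2 or 3 and 4, and 70 to 330 with 1 mouse left out. The cause of the following reversals was not tested. With only libraries 1 and 2, Tnfsf9 was at -0.0591 and Tnfrsf1b at -0.0785. With only libraries 3 and 4, Tnfsf13b was at -0.12, Tnfrsf1a at 0.0724, Tnfrsf10b at 0.0059 and Fas at 0.0806. Leaving out 1 mouse moved Tnf from -0.23 to 0.0107, Tnfsf9 from -0.16 to 0.24, Tnfsf13b from -0.0437 to 0.31, Tnfrsf1a from -0.16 to 0.0825, Tnfrsf1b from -0.12 to 0.13, Tnfrsf10b from -0.20 to 0.0390 and Fas from -0.39 to 0.0788. The genotype by library number interaction then ran from -0.43 to 0.18 for Tnfsf10, -0.0332 to 0.52 for Tnfsf9, -0.16 to 0.20 for Tnfsf12, -1.04 to 0.0318 for Tnfsf13b, -0.0262 to 0.41 for Tnfrsf1a, -0.0365 to 0.43 for Tnfrsf1b, -0.0157 to 0.50 for Tnfrsf10b and -0.10 to 0.89 for Fas, and called 0 to 1 of the 9, the 1 being Fas without null mouse 1. Over all genes that fit called 181 and the fit without null mouse 2 called 239, 3 of them pathway genes, in place of 0. Pathway genes at an unadjusted p under 0.05 numbered 8, and 1 to 11 with 1 mouse left out. Few reads limit the precision of Tnfsf10.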
